A study of Mus musculus with 2 samples.

Results

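Angptl6 and Fam129a are 2 of the 27998 mouse genes listed in both count tables, and both had far more transcripts in glucose-restricted CD8+ T cells than in control cells. They were chosen by that difference in UMI counts between the 2 libraries (unique molecular identifiers, 1 per captured transcript), so its size is given as a description with no test. Angptl6 had 1115 UMIs in TGR cells, against 80 in control cells. Fam129a had 953 UMIs in TGR cells, against 106 in control cells. What the choice did not use is how the transcripts were spread over cells, depth, cell cycle phase and the stress transcripts Ddit3, Trib3 and Atf4.

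Angptl6 encodes angiopoietin-like 6, a secreted protein with a coiled coil and a fibrinogen-like domain that is known mostly from liver and metabolic studies. Fam129a, now also named Niban1, encodes a cytoplasmic protein that is known for its induction under cellular stress and for affecting the phosphorylation of translation regulators. The integrated stress response works through kinases that phosphorylate the initiation factor eIF2alpha, which lowers general translation and raises translation of the transcription factor ATF4. ATF4 in turn acts on Ddit3, which encodes the transcription factor CHOP, and on Trib3, which encodes a pseudokinase that binds ATF4.

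The study holds 1 library of TGR cells and 1 library of control cells, both of CD8+ T cells from spleens and lymph nodes of OT-I mice aged 8 to 12 weeks, a strain whose T cells recognise the ovalbumin peptide SIINFEKL. Both cultures were activated with that peptide for 48 h and then kept for 20 h with 100 U/ml IL-2. TGR (transient glucose restriction) cells had 1 mM glucose and control cells had 11 mM glucose. The sample descriptions instead speak of 3 days of growth before an acute exposure, and which of the 2 timings applies could not be settled. With 1 library per condition, no difference between conditions could be tested, and all intervals are 95% intervals that cover counting error only.

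After removal of cells with under 500 genes or with 10% or more mitochondrial UMIs, 2546 of 2548 TGR barcodes and 3127 of 3336 control barcodes remained. The median depth was 6265.5 UMIs per TGR cell and 4030 UMIs per control cell. Ribosomal protein genes took 49.99% of UMIs in TGR cells and 40.2% in control cells. Of the barcodes, 11 occurred in both libraries. At least 1 CD3 or CD8 UMI was found in 2544 TGR cells and in 3100 control cells, which goes with the label. The libraries thus held no cell type that should lack the 2 genes, and the share that free RNA alone would give was not measured. The hepatocyte markers Alb and Apoa1 were at 0 in both libraries, and the summed level of 5 myeloid markers was 3.50 CPM (counts per 1000000 UMIs) in TGR cells and 1.49 CPM in control cells. Most of the myeloid sum was Cd68, with 3.40 CPM in TGR cells and 1.29 CPM in control cells. Higher sums, TGR before control, came from B cell (12.7 and 19.1 CPM) and stromal markers (29.2 and 24.4 CPM). Plasmacytoid dendritic cell markers summed to 142 CPM in TGR cells and 186 CPM in control cells. These higher sums came almost wholly from Cd79b, Pecam1 and Bst2, in that order.

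Angptl6 (ENSMUSG00000038742) lies on chr9:20873808-20879727 of GRCm38, minus strand, with 6 exons in its 1 annotated transcript. Its last exon of 265 bases lies wholly within exons of the convergent gene A230050P20Rik on the plus strand. Whether the counting used strand is not given in the sources used here, so reads from that exon may not be told apart. A230050P20Rik had 13.4 CPM in TGR cells and 11.6 CPM in control cells, a ratio of 1.15. Fam129a (ENSMUSG00000026483) lies on chr1:151571186-151721939, plus strand, with up to 15 exons per transcript, and overlaps no other annotated gene.

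The promoters of both genes are shown with those of Trib3 and Chchd10, since ATF4 is known to bind, with C/EBP partners, elements of the form TGATGNAAN. Chchd10 was the gene most like both in the cell-to-cell pattern described further on. Each sequence runs from 250 bases before to 30 bases after the RefSeq gene start (GRCm38.p6), 5′ to 3′ on the gene's own strand, with matches to TGATGNAAN on either strand in capitals. The coordinates are chr9:20879681-20879960 (minus) for Angptl6, chr1:151571123-151571402 (plus) for Fam129a, chr2:152344031-152344310 (minus) for Trib3 and chr10:75932880-75933159 (plus) for Chchd10.
Angptl6: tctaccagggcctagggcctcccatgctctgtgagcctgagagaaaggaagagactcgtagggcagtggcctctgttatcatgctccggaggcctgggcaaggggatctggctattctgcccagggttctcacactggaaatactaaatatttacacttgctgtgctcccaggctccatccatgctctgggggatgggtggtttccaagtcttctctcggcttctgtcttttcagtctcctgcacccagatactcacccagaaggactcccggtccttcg
Fam129a: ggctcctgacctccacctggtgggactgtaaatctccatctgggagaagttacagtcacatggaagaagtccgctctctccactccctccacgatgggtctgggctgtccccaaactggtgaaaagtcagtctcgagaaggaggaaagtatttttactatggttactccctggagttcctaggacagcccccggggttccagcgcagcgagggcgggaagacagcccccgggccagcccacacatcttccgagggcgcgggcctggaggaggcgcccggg
Trib3: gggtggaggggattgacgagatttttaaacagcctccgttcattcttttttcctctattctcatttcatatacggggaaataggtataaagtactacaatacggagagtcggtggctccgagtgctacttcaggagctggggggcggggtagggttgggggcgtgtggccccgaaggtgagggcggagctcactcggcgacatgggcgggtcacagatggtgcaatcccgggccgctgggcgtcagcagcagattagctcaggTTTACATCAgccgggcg
Chchd10: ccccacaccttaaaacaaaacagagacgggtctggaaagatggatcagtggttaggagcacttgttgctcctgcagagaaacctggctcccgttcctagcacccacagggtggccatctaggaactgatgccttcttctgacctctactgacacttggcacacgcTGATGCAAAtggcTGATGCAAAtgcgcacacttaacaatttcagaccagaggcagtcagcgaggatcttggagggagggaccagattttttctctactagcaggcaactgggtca
The full windows of 300 bases, which end 50 bases after the start, held no match in Angptl6 or Fam129a. Trib3 held 1 match, on the opposite strand, beginning 13 bases after the start. It was the only 1 of the 3 stress transcripts with a match, and the windows of Ddit3 and Atf4, not shown, held none. Chchd10 held 2 matches on the gene's own strand, 85 and 72 bases before the start. Of all 32851 promoter windows in the table, 3.95% held at least 1 match. Of the 36 genes in a list of ATF4 and CHOP targets, 29 had a window and 9 of these held a match. A match describes letters only, and no match says only that these letters are absent from the window.

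Angptl6 was a moderately abundant transcript in TGR cells and a scarce one in control cells. Its level was 56.6 CPM (interval 53.3 to 60.0) in TGR cells and 5.43 CPM (4.31 to 6.76) in control cells, a ratio of 10.4 (8.30 to 13.2). At least 1 UMI was found in 775 TGR cells (30.4%, 28.7 to 32.3) and in 77 control cells (2.46%, 1.95 to 3.07). Angptl6 was chosen by this difference, so intervals of level and share that did not overlap between the libraries are no support. Among all genes it stood at rank 1684 by CPM in TGR cells and at rank 7703 in control cells.

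Fam129a showed the same direction with a smaller ratio. Its level was 48.4 CPM (45.4 to 51.6) in TGR cells and 7.20 CPM (5.89 to 8.70) in control cells, a ratio of 6.70 (5.50 to 8.30). UMIs were found in 708 TGR cells (27.8%, 26.1 to 29.6) and in 103 control cells (3.29%, 2.70 to 3.98). The order of the 2 genes thus differed between libraries, with Angptl6 above Fam129a in TGR cells and below it in control cells, although the control intervals overlapped. These are levels per library total, not per gene length.

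For background, 6667 genes reached 10 CPM in at least 1 library, and 221 of them (3.31%) were at least 2-fold higher in TGR cells. Their median log2 ratio was −0.16. Both genes were among the 221, which the choice of genes fixed, and both passed the 10 CPM minimum through the TGR library alone. By ratio they held ranks 4 and 8 of the 4012 genes that reached 25 CPM in at least 1 library. Leaving ribosomal protein and mitochondrial genes out of the totals moved all log2 ratios up by 0.26.

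Most positive cells had 1 UMI of the gene. Of the TGR cells, 532 had 1 Angptl6 UMI, 171 had 2 and 72 had 3 or more, with a highest count of 7. In control cells, 74 had 1 Angptl6 UMI, 3 had 2 and none had more. Fam129a gave 514 TGR cells with 1 UMI, 155 with 2 and 39 with 3 or more, against 100 control cells with 1 and 3 with 2. Cells with 2 or more UMIs made up 31.4% of Angptl6-positive TGR cells and 3.90% of Angptl6-positive control cells. For Fam129a these shares were 27.4% in TGR cells and 2.91% in control cells.

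Detection followed depth in both libraries. TGR cells with Angptl6 had a median of 8194 UMIs and those without it 5585 UMIs. Control cells with Angptl6 had a median of 5362 UMIs and those without it 4016 UMIs. For Fam129a the medians were 8695.5 and 5629.5 UMIs in TGR cells and 6094 and 4007.5 UMIs in control cells. Since TGR cells were deeper, shares were also computed with every cell brought down to 1500 UMIs.

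At 1500 UMIs per cell, Angptl6 was expected in 7.56% of TGR cells (6.57 to 8.66) and in 0.794% of control cells (0.510 to 1.18), a difference of 6.77 percentage points (5.70 to 7.90). Fam129a was expected in 6.33% of TGR cells (5.42 to 7.35) and in 1.03% of control cells (0.699 to 1.45), a difference of 5.30 points (4.30 to 6.37). At 3000 UMIs the Angptl6 shares were 14.2% of TGR cells and 1.66% of control cells, and the Fam129a shares were 12.3% and 2.02%. The shallower cells left out at 1500 UMIs were 0 TGR cells and 91 control cells, and at 3000 UMIs 103 TGR cells and 898 control cells. The gap between the libraries was therefore present at equal depth.

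The same gap appeared within each band of UMIs per cell. Angptl6 was found in 14.6% of TGR cells under 3000 UMIs, against 1.00% of control cells, and in 50.3% of TGR cells with 9000 UMIs or more, against 6.57% of control cells. Its level in the 4 bands from shallow to deep was 59.6, 41.4, 70.1 and 57.5 CPM in TGR cells, and 4.55, 5.51, 5.21 and 6.10 CPM in control cells. Angptl6 levels thus had no steady order with depth, whereas its shares were higher in each deeper band.

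Fam129a was found in 7.77% of TGR cells under 3000 UMIs, against 1.45% of control cells, and in 50.6% of TGR cells with 9000 UMIs or more, against 11.3% of control cells. Its level from shallow to deep was 28.0, 37.6, 49.1 and 54.3 CPM in TGR cells, and 7.08, 5.99, 6.08 and 11.2 CPM in control cells. In TGR cells the Fam129a level was thus higher in each deeper band, but the shallowest band held only 103 TGR cells and its interval ran from 12.1 to 55.2 CPM.

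**Figure D1:**
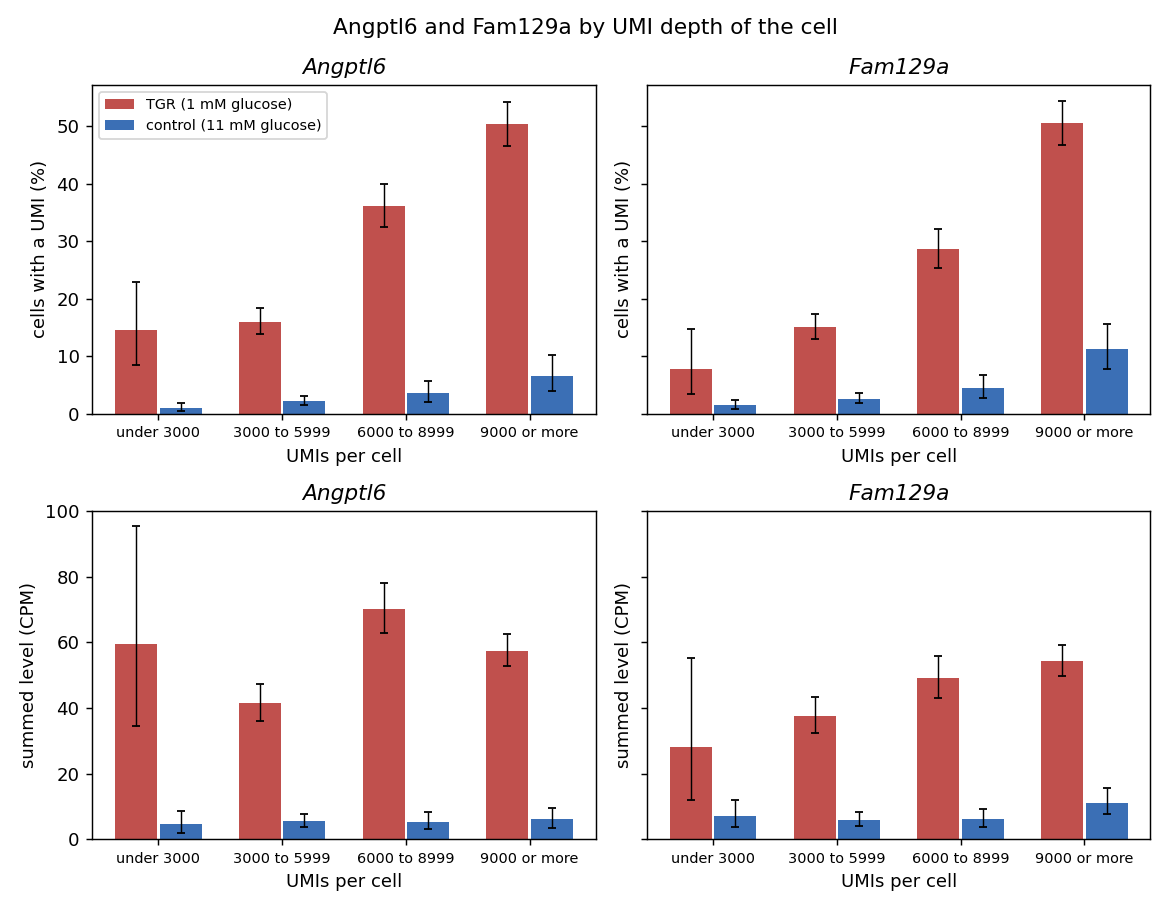
Share of cells with at least 1 UMI (%, upper panels) and summed level (CPM, lower panels) of Angptl6 and Fam129a in 4 bands of UMIs per cell, with TGR cells (red) left of control cells (blue) and bars showing 95% counting intervals. Every TGR bar stands above its control bar, and shares but not Angptl6 levels are higher in each deeper band.

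Both transcripts were found in TGR cells called in each cell cycle phase. Phases were called from cell cycle gene scores at 1500 UMIs, which put 48.0% of TGR cells and 5.24% of control cells in G1. These calls rest on gene scores alone and are not read as a difference in cycling. Angptl6 had 54.2 CPM in G1, 60.0 CPM in S and 57.9 CPM in G2/M among TGR cells, against 8.70, 4.47 and 5.46 CPM among control cells. Fam129a had 46.4, 45.4 and 50.7 CPM among TGR cells, against 10.4, 5.75 and 7.30 CPM among control cells. Within G1 the ratio was 6.15 (2.65 to 19.3) for Angptl6 and 4.40 (2.02 to 12.2) for Fam129a, with only 159 control cells. These ratios lay below those over all cells, but their intervals included them.

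The partner transcripts were also higher in TGR cells. Ddit3 had 267 CPM in TGR cells and 12.6 CPM in control cells, Trib3 had 136 and 15.8 CPM, and Atf4 had 297 and 105 CPM. As deposited, the share of TGR cells with Angptl6 was 35.2% among cells with Ddit3 and 18.6% among cells without it. Cells with a partner are deeper on average, so that gap of 16.7 points includes depth.

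At 1500 UMIs per TGR cell, the gaps were small. Angptl6 was expected in 8.05% of cells with Ddit3 and 7.36% of cells without it, a difference of 0.69 points (−1.56 to 3.14). By Trib3 its shares were 8.85% with and 7.30% without, and by Atf4 8.45% with and 7.08% without. Fam129a was expected in 6.89% of cells with Ddit3 and 6.09% without it, a difference of 0.80 points (−1.28 to 3.09). By Trib3 its shares were 7.51% with and 6.09% without, and by Atf4 6.84% with and 6.05% without. All 6 differences were above 0 and all 6 intervals included 0, so no association was detectable in the expected shares at 1500 UMIs. Pairs among the partners themselves gave intervals that included 0 at this depth too. Ddit3 by Trib3 differed by 4.71 points (−0.18 to 9.78) and Ddit3 by Atf4 by 3.30 points (−0.50 to 7.14). Trib3 by Atf4 differed by 2.43 points (−0.68 to 5.65). Shares at 1500 UMIs therefore cannot tell a weak association from none. A single random draw of 1500 UMIs was the earlier plan, and the expected shares replaced it after it proved noisy. That draw turned Angptl6 by Ddit3 to −0.61 points and Fam129a by Trib3 to −0.20 points. The same draw put Angptl6 by Trib3 at 3.02 points (0.03 to 6.45), and the intervals of the other pairs with Angptl6 or Fam129a included 0.

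At 3000 UMIs the differences were larger in all 6 pairs, from 1.56 to 3.49 points. Angptl6 was expected in 15.7% of TGR cells with Atf4 and 12.2% without it, a difference of 3.49 points (0.66 to 6.27). Fam129a was expected in 14.4% of TGR cells with Trib3 and 11.4% without it, a difference of 3.00 points (0.07 to 6.11). These were the 2 pairs whose interval lay above 0, and the other 4 intervals included 0. The association with Ddit3, the partner with the highest ratio between libraries, was 2.11 points for Angptl6 (−0.71 to 4.94) and 2.08 points for Fam129a (−0.59 to 4.74).

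Within the bands of UMIs per cell, with UMIs as deposited, the 6 pairs gave 24 differences among TGR cells, of which 10 had an interval above 0, 14 had one that included 0 and none had one below 0. The 3 negative differences all came from the band under 3000 UMIs. Angptl6 was found in 19.5% of TGR cells with Atf4 and 7.93% without it at 3000 to under 6000 UMIs, a difference of 11.6 points (7.14 to 15.6). At 6000 to under 9000 UMIs the difference was 19.3 points (9.19 to 27.7), and at 9000 UMIs or more its interval ran from −17.0 to 20.6 points, with 31 cells without Atf4.

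Angptl6 by Ddit3 differed by 27.2 points (12.1 to 39.3) at 9000 UMIs or more, with 48 cells without Ddit3, and by 3.43 points (−5.41 to 11.8) in the band before it. Fam129a by Trib3 had an interval above 0 in all bands except the shallowest, with differences of 7.53, 7.70 and 10.3 points. Fam129a by Atf4 had an interval that included 0 in every band. Cells within a band still differ in depth, so these gaps are matched less closely than those at 1500 or 3000 UMIs.

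**Figure D2:**
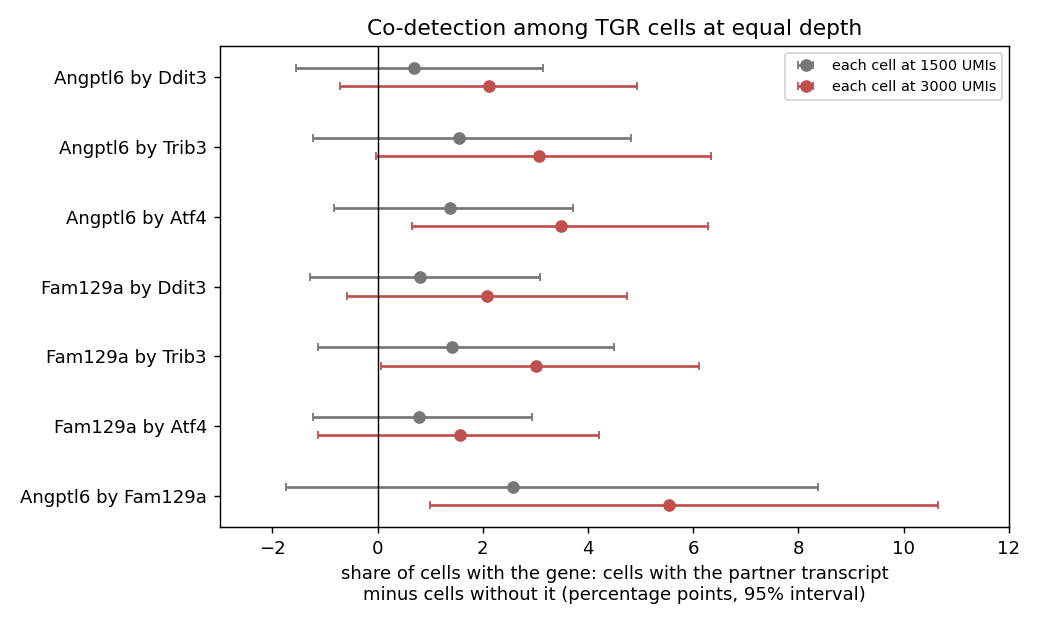
Difference in the share of TGR cells with the first-named gene between cells with and without the second-named transcript (percentage points, 95% counting intervals), with every cell at 1500 UMIs (grey) or 3000 UMIs (red). All points lie right of 0, and at 1500 UMIs every interval includes 0.

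Angptl6 was itself somewhat more often found in TGR cells that also had Fam129a. As deposited, 315 TGR cells had both, 460 had Angptl6 alone, 393 had Fam129a alone and 1378 had neither. Thus 45.9% of TGR cells had at least 1 of the 2, against 5.66% of control cells, where 3 cells had both. At 3000 UMIs, Angptl6 was expected in 19.0% of TGR cells with Fam129a and 13.5% of those without it, a difference of 5.54 points (1.00 to 10.6). At 1500 UMIs the shares were 9.98% with and 7.40% without, a difference of 2.57 points (−1.73 to 8.37), which a single random draw turned to −0.81 points.

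The share of TGR cells with each gene was higher where more of the 3 partners were found. With 0, 1, 2 and 3 partners found at 3000 UMIs, Angptl6 was expected in 9.82, 13.8, 15.8 and 17.5% of TGR cells. Fam129a was expected in 8.83, 12.1, 13.7 and 14.5% of TGR cells. The intervals with 0 and 3 partners did not overlap, by a narrow margin, for Angptl6, and ran from 7.19 to 13.0% with 0 partners and from 13.1 to 22.7% with 3. For Fam129a they overlapped, from 6.34 to 11.9% with 0 partners and from 10.4 to 19.4% with 3. At 1500 UMIs the intervals with 0 and 3 partners overlapped for both genes. Angptl6 was then expected in 6.54% of TGR cells (5.08 to 8.26) with 0 partners and 9.11% (3.17 to 19.6) with 3.

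As deposited, 23 of the 1168 TGR cells with either gene (1.97%) lacked all 3 partners, beside 7.31% of all TGR cells, while 98 of the 177 control cells with either gene (55.4%) lacked them, beside 59.7% of all control cells. At 1500 UMIs, 33.8% of TGR cells with either gene lacked all partners, beside 39.1% of all TGR cells. In control cells, as deposited, Angptl6 was found in 2.46, 2.14, 4.19 and 5.56% of cells with 0, 1, 2 and 3 partners. Fam129a was found in 2.84, 3.44, 5.99 and 16.7% of the same cells. Only 167 control cells had 2 partners and 18 had 3, and depth was not matched. Control cells with Ddit3 and either gene were too few for a comparison, with 7 cells for Angptl6 and 8 cells for Fam129a. With Atf4, as deposited, 26 control cells had Angptl6 and 46 had Fam129a. Angptl6 was found in 2.43% of control cells with Atf4 and 2.48% without it. Fam129a was found in 4.29% with Atf4 and 2.77% without it, a difference of 1.52 points (0.13 to 3.06) with depth not matched. At 1500 UMIs the Fam129a difference was −0.28 points (−1.05 to 1.17).

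A grading of TGR cells by level, chosen after these results were seen, used the UMIs of all partners together. Within each of 10 depth classes, cells were ranked by the summed CPM of Ddit3, Trib3 and Atf4 and split into 3 equal tiers, which kept the median depth of the tiers between 6257 and 6272.5 UMIs. Angptl6 had 46.2 CPM (41.1 to 51.7) in the low tier, 58.2 CPM in the middle tier and 65.4 CPM (59.3 to 71.9) in the high tier. Fam129a had 40.7 CPM (35.9 to 45.9) in the low tier, 49.3 CPM in the middle tier and 55.1 CPM (49.6 to 61.1) in the high tier. For both genes the intervals of the low and high tiers did not overlap.

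Even the low tier of TGR cells stood above every tier of control cells. In control cells Angptl6 had 6.25, 6.49 and 3.51 CPM from the low to the high tier, and Fam129a had 7.66, 6.29 and 7.64 CPM. In control cells the intervals of all tiers overlapped for both genes, so no difference between tiers was detectable at these counts.

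The genes most like each of the 2 were sought among 3490 genes with at least 25 CPM in TGR cells, by the Pearson r of log2(1 + UMIs) across the 2546 TGR cells at 1500 UMIs, as a mean over 20 draws. Chchd10, which encodes a protein of the mitochondrial intermembrane space, came first for both, with an r of 0.099 for Angptl6 and 0.057 for Fam129a. The ferritin genes Ftl1 and Fth1 followed for both, with r of 0.056 and 0.047 for Angptl6 and 0.035 and 0.032 for Fam129a. Angptl6 was next most like Eif4ebp1, a translation repressor (0.041), and Atf5, a stress-linked transcription factor (0.039). Fam129a was next most like Trib3 (0.027), Atf5 (0.026) and Hspa9, a mitochondrial chaperone (0.026). The r between Angptl6 and Fam129a was 0.020. All these r are weak, the cells share 1 library, and sparse counts limit r, so they are a description and no finding.

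Chchd10 kept first place for both genes at 3000 UMIs, with r of 0.166 for Angptl6 and 0.091 for Fam129a. It had 1090 CPM in TGR cells and 404 CPM in control cells. Ranked by Chchd10 within the 10 depth classes, the low, middle and high tiers of TGR cells had 30.9 (26.8 to 35.4), 58.3 and 81.0 CPM (74.2 to 88.2) of Angptl6. The same tiers had 35.6 (31.2 to 40.5), 52.3 and 57.4 CPM (51.7 to 63.5) of Fam129a. The spread over tiers was thus wider for Angptl6 by Chchd10 than by the 3 partners. In control cells the tiers by Chchd10 had 4.86, 5.68 and 5.76 CPM of Angptl6 and 7.29, 6.49 and 7.82 CPM of Fam129a, with overlapping intervals. Chchd10 was picked for its likeness in these cells, so its tiers are no independent support.

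**Figure D3:**
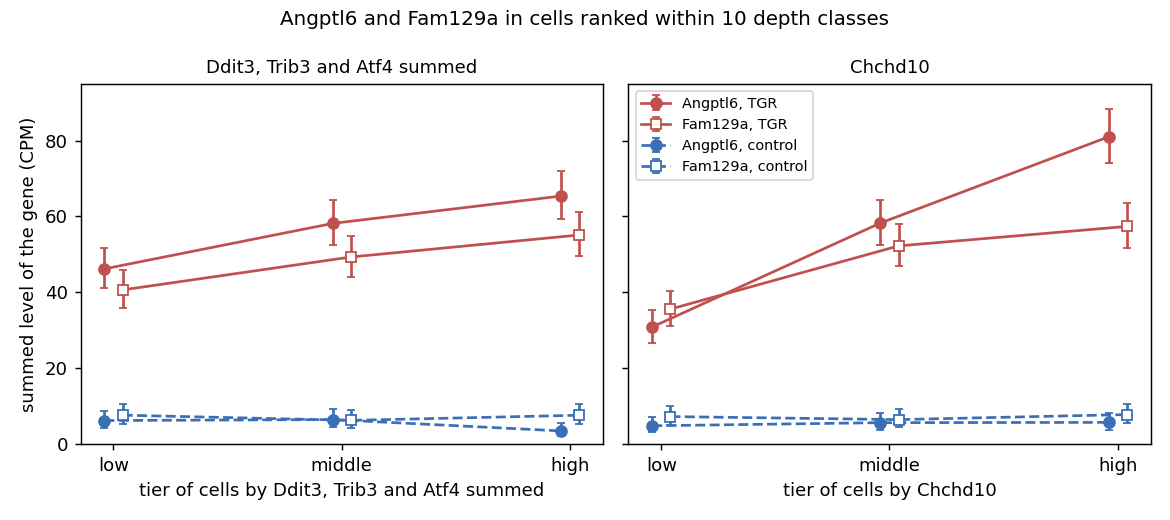
Summed level (CPM) of Angptl6 (filled circles) and Fam129a (open squares) in tiers of cells ranked by the summed partner transcripts (left) or by Chchd10 (right) within the 10 depth classes, in TGR cells (red, solid) and control cells (blue, dashed), with 95% counting intervals. In TGR cells levels are higher from the low to the high tier, up to 81.0 CPM of Angptl6, while no control level exceeds 7.82 CPM.

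Among the regulators at the head of the pathway, the eIF2alpha phosphatase subunit gene Ppp1r15a had 17.5 CPM in TGR cells and 5.23 CPM in control cells, a ratio of 3.34. It was the 1 of 4 scored genes, out of 6 listed, that was at least 2-fold higher, beside 3.31% of all scored genes. Ppp1r15a passed the minimum through the TGR library alone, and 0 of the 3 genes scored in control cells were at least 2-fold higher. The constitutive subunit gene Ppp1r15b had 24.4 CPM in TGR cells and 23.4 CPM in control cells. The kinase genes Eif2ak1 (HRI) and Eif2ak2 (PKR) had ratios of 0.748 and 1.05. Eif2ak3 (PERK), with 7.97 CPM in TGR cells and 4.68 CPM in control cells, and Eif2ak4 (GCN2), with 4.06 and 5.91 CPM, were too low to be scored.

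Of 36 ATF4 and CHOP target genes, 27 were scored, 8 were at least 2-fold higher in TGR cells and none was at least 2-fold lower, beside 3.31% and 7.87% of all scored genes. The balance over all genes depends on the scaling, since totals without ribosomal protein and mitochondrial genes put 405 genes past 2-fold in the TGR direction and 234 in the control direction, against 221 and 525. The median log2 ratio of the 27 scored target genes was 0.62. Of the 27, 4 passed the minimum through TGR cells alone, and 5 of the 23 scored in control cells were at least 2-fold higher. The highest ratios belonged to Atf5 (18.0), Nupr1, a stress-response chromatin protein (17.1), Pck2, a mitochondrial enzyme that makes phosphoenolpyruvate (4.46), and Bbc3, a death-promoting BCL2 family gene (4.45). The serine synthesis genes Psph and Psat1 had the lowest log2 ratios, at −0.42 and −0.24. The ratio of Angptl6 lay between those of Nupr1 and Pck2, as did that of Fam129a.

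Of 15 endoplasmic reticulum chaperone and unfolded protein response genes, 13 were scored and 1, Herpud1 (a ratio of 2.26), was at least 2-fold higher, beside 3.31% of all scored genes, so 1 of 13 is near the background. Their median log2 ratio was 0.10. Sel1l (1.85), the chaperone gene Hspa5 (1.68) and Xbp1 (1.31) came next, and Dnajc3 and Hsp90b1 were lowest, with log2 ratios of −0.37 and −0.32. Of 9 p53 target genes, 8 were scored and 4 were at least 2-fold higher, namely Cdkn1a (2.44), Trp53inp1 (2.37), Phlda3 (2.37) and Zmat3 (2.16), beside 3.31% of all scored genes. Zmat3 passed the minimum through TGR cells alone, and 3 of the 7 genes scored in control cells were at least 2-fold higher. The pro-apoptotic gene Bax and Sesn1 were lowest, with log2 ratios of −0.50 and −0.16. The median of the p53 list was 0.79 on the log2 scale.

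**Figure D4:**
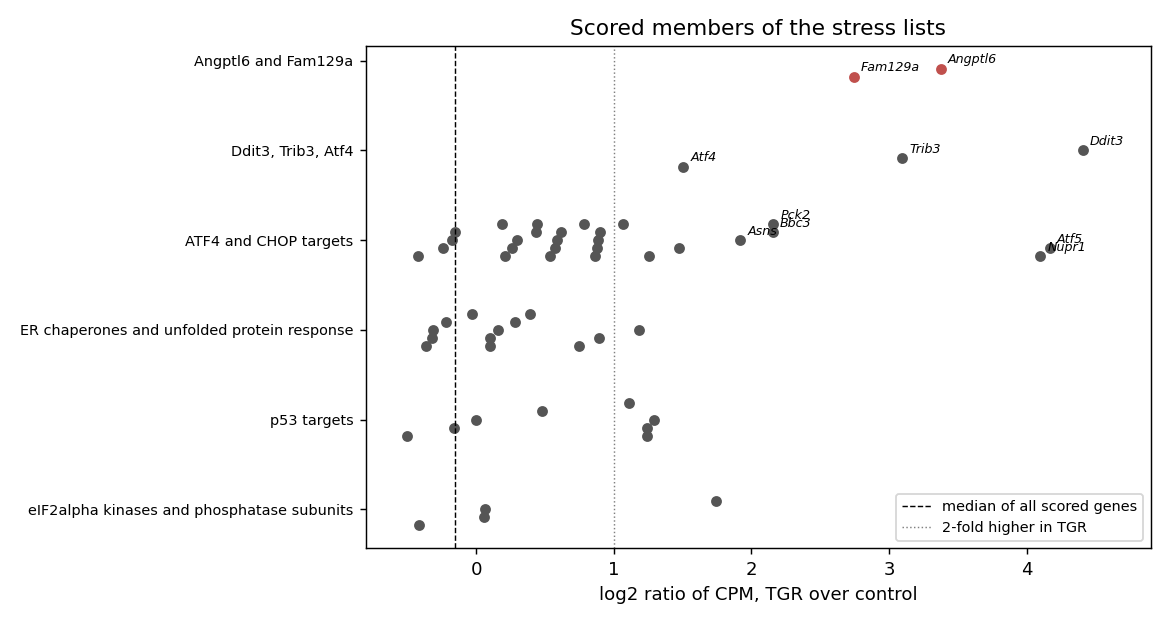
Log2 ratio of CPM, TGR over control, for Angptl6 and Fam129a (red), the 3 partners and the scored members of 4 gene lists, 1 point per gene. The dashed line marks the median of all scored genes (−0.16) and the dotted line a 2-fold higher level in TGR cells. Angptl6 (3.37) and Fam129a (2.74) lie beyond most ATF4 and CHOP targets and below Ddit3 (4.41), Atf5 and Nupr1.

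The relatives of the 2 genes described here were rare. Angptl4, which encodes a lipoprotein lipase inhibitor, had 123 UMIs (6.24 CPM) in TGR cells and 107 UMIs (7.26 CPM) in control cells, a ratio of 0.860 (0.658 to 1.12). Angptl2 had 5 UMIs in TGR cells and 4 in control cells, and Angptl1, Angptl7 and Angptl8 had 0 in both. Fam129b had 38 UMIs in TGR cells and 23 in control cells, a ratio of 1.23 (0.717 to 2.17). Fam129c had 60 UMIs in TGR cells and 17 in control cells, a ratio of 2.60 (1.52 to 4.83), from a level of 3.05 CPM in TGR cells and 1.15 CPM in control cells. The interval of Fam129c lay below that of Fam129a, and the interval of Angptl4 lay below that of Angptl6. Angptl6 and Fam129a were chosen by this difference between libraries, so that order is no support.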

How the data were processed

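The authors deposited raw UMI counts per gene and barcode, 1 matrix per library, from 10x Chromium v2 kits per the labels' protocols. The submitters' processing notes name Cell Ranger 2.2, Seurat 3 and mm10, with no role for each. Cells with at least 500 genes and under 10% mitochondrial UMIs were kept. No doublet caller was run. UMIs were summed per library and scaled per 1000000 (CPM). Ratios had 0.5 UMI added to each library, and genes reaching 10 CPM in at least 1 library were scored. With 1 library per group no test was made. Intervals at 95% are exact binomial or Poisson, and those of a difference join the 2 intervals. For expected shares, the binomial interval took the expected number of cells as if it had been observed, so it is approximate.

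Shares at 1500 or 3000 UMIs are exact expected shares over all possible draws of that many UMIs from each cell. A single random draw, the earlier plan, proved noisy and is an alternative. Likeness used 20 draws. Phases came from scanpy 1.11.5 scores, and scaling alternatives from edgeR 4.0.16 and DESeq2 1.42.0 in R 4.3.3. The ratio calculation was tested on simulated data. Positions are from GENCODE M21 and promoters from RefSeq, where Fam129a was matched through its symbol Niban1. The GENCODE and RefSeq starts differ. Angptl6, Fam129a and all lists were chosen with earlier results of these data known. The rule for named genes took the 4 highest and 2 lowest scored genes of each target list by ratio, the genes of the families and of the kinase list, and the 6 genes most alike, and some genes that it took are not reported here.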

Additional observations from a re-analysis of the deposited data

How the results depend on the processing

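No paired analysis was possible because each condition has 1 library, and for the same reason no replicate could be left out. A single random draw of 1500 UMIs turned 3 co-detection differences, whose intervals included 0, below 0: Angptl6 by Ddit3 to −0.61, Fam129a by Trib3 to −0.20 and Angptl6 by Fam129a to −0.81 points. The same draw put Angptl6 by Trib3 at 3.02 points (0.03 to 6.45). No other value of Angptl6 or Fam129a changed direction under the alternatives run. In all, 82 alternative values kept within the counting interval of the reported value or, for gene counts, within 1.5 times. The median log2 ratio of all scored genes turned from −0.16 to 0.10 with totals without ribosomal protein and mitochondrial genes. The log2 ratio moved in cells called G1 to 2.62 for Angptl6 and 2.14 for Fam129a, and in cells with at least 4000 and under 7000 UMIs to 3.07 for Fam129a. The difference in shares, TGR minus control, was 12.5 points for Angptl6 and 10.3 points for Fam129a at 3000 UMIs, and 28.0 and 24.5 points as deposited, where depth was not matched. As deposited, the co-detection differences were 16.7, 17.3 and 21.4 points for Angptl6 by Ddit3, Trib3 and Atf4, 16.3, 17.7 and 15.6 points for Fam129a, and 19.5 points for Angptl6 by Fam129a. The number of genes at least 2-fold higher, reported as 221 (525 lower), was 405 (234 lower) with totals without ribosomal protein and mitochondrial genes. It was 2509 (1646 lower) with no minimum CPM and 73 (316 lower) with a minimum of 50 CPM. In cells called G1, where few control cells remain, it was 417 (650 lower). Beyond the depth and the number of genes or cells that these settings change by construction, the cause was not tested. Depth limits co-detection, since at 1500 UMIs 7.56% of TGR cells were expected to hold Angptl6 and 6.33% Fam129a.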
